A study of Homo sapiens with 4 samples.

Results

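In AGS, an established line of gastric adenocarcinoma cells, 9 transcription factors known for their part in gastric and intestinal identity were followed: SOX2, SOX9, GATA4, GATA6, HNF4A, CDX1, CDX2, FOXA2 and KLF5. Their Ensembl identifiers in the table are ENSG00000181449 for SOX2, ENSG00000125398 for SOX9, ENSG00000136574 for GATA4, ENSG00000141448 for GATA6, ENSG00000101076 for HNF4A, ENSG00000113722 for CDX1, ENSG00000165556 for CDX2, ENSG00000125798 for FOXA2 and ENSG00000102554 for KLF5, and all places given below are those of GENCODE 29 on GRCh38. The factors were taken by gene name, and all 9 were among the 47251 genes of the table. RNA was sequenced in 4 libraries, 2 from cells infected with lentivirus carrying an shRNA against MFAP2 (sh-MFAP2) and 2 from cells carrying a scrambled shRNA (control). Both groups had passed through puromycin selection, and the sources used here do not say whether the stable cells were pooled or clonal, nor whether the 2 libraries of a group came from separate cultures. The p-values below therefore measure only the spread between these libraries, which may be technical. Values are FPKM, fragments per kilobase of transcript scaled to the size of the library, so that levels of different genes can be compared per length.

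The epithelium of the stomach and intestine arises from endoderm. FOXA2 is a pioneer factor that opens chromatin early in endoderm, and the zinc finger factors GATA4 and GATA6 act in its specification and in the stomach and intestine. SOX2 marks the foregut and the stomach, whereas the homeobox factors CDX1 and CDX2 specify the intestine and appear in the stomach in intestinal metaplasia. HNF4A is a nuclear receptor of stomach, intestine and liver, SOX9 marks progenitor cells of several endodermal organs, and KLF5 is a zinc finger factor of proliferating epithelium.

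HNF4A is read from 2 promoters, an upstream one called P2, known to be used in stomach and pancreas, and a downstream one called P1, known to be used in liver. The start of the P2 transcript ENST00000316673 and that of the P1 transcript ENST00000316099 lie 45584 bases apart in GENCODE 29 on GRCh38. The shares of P2 and P1 transcripts in the summed HNF4A transcript FPKM are given further on. The 250 bases before the RefSeq start of each promoter, on GRCh38.p14, plus strand, are shown here. Transcripts were assigned to the classes by their annotated start, not by these bases. Capitals mark matches to the motifs searched, which are a GATA site and a GC box in P2 at chr20:44355449-44355698, and a GC box and 2 HNF1 sites in P1 at chr20:44400989-44401238.
HNF4A P2: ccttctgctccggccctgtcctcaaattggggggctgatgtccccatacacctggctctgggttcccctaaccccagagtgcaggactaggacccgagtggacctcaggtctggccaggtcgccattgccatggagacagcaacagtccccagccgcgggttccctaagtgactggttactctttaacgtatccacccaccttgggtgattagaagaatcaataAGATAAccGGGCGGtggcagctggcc
HNF4A P1: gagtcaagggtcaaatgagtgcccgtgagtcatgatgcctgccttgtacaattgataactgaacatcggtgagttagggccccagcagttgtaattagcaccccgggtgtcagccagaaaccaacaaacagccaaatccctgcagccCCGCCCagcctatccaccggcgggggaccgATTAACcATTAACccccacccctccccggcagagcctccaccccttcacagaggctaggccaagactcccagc

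The proteins made from the classes differ at their start. The coding bases of the first exon, 49 in the P2 transcript and 115 in the P1 transcript, are shown from GENCODE 29 with the start codon in capitals.
HNF4A P2 first coding exon: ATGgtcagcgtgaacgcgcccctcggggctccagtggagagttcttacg
HNF4A P1 first coding exon: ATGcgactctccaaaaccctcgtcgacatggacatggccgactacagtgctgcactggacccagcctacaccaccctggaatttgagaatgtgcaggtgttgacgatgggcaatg

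Motifs were searched on both strands in 7 windows of 250 bases for CDX2, GATA6, HNF4A, KLF5 and SOX2. The GATA motif AGATAA was in 2 of the 7, HNF4A P2 and CDX2, and in 9.17% of the 35116 windows of this length over all genes. The HNF1 motif GTTAAT was in 1 of the 7, HNF4A P1, and in 6.23% of all, and the FOXA motif TGTTTAC was in 1 of the 7, CDX2, and in 2.98% of all. The GC box GGGCGG was in 4 of the 7 and in 42.6% of all. The SOX motif ACAATG and the TATA box TATAAA were each in 1 of the 7, the upstream window of KLF5, and in 9.29% and 10.7% of all. The HNF4 motif CAAAGTC and the CDX motif TTTATG were in none of the 7 and in 2.91% and 9.64% of all. A match of letters is not a bound site.

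Across all 4 libraries the line carried RNA of regulators shared by stomach and intestine, and of the intestinal CDX2. SOX2, which marks the foregut and stomach, was listed at 0 in sh-MFAP2 replicate 2 and control replicate 1. In the gene table the order of the mean levels was SOX9 at 34.9 FPKM, KLF5 at 34.4 FPKM, GATA4 at 23.7 FPKM, CDX2 at 8.98 FPKM, GATA6 at 8.88 FPKM, SOX2 at 3.60 FPKM, HNF4A at 2.23 FPKM and FOXA2 at 2.15 FPKM. CDX1 was listed at 0 in all 4 libraries. The ranges over the 4 libraries overlapped between the neighbours SOX9 and KLF5, KLF5 and GATA4, CDX2 and GATA6, SOX2 and HNF4A, and HNF4A and FOXA2, so the order within these pairs is not beyond their spread. GATA6 and SOX2 did not overlap, with 8.13 FPKM as the lowest GATA6 value and 7.82 FPKM as the highest SOX2 value. Part of the order depended on the length used, since the gene table divides by 1 length per gene (7206 bases for HNF4A, whose leading transcript has 1470). From summed transcript FPKM the means were 37.9 for KLF5, 37.2 for GATA4, 34.9 for SOX9, 10.1 for HNF4A, 9.86 for GATA6, 9.49 for CDX2, 3.60 for SOX2 and 2.31 for FOXA2, so that HNF4A stood beside GATA6 and CDX2. In the gene table GATA4 stood apart from CDX2, since its lowest value of 21.8 FPKM was above the highest CDX2 value of 10.1 FPKM. Among the 23806 genes above 0 in at least 1 library, SOX9, KLF5 and GATA4 lay above 95.7%, 95.6% and 93.4% of genes, and FOXA2 above 65.5%.

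**Figure D1:**
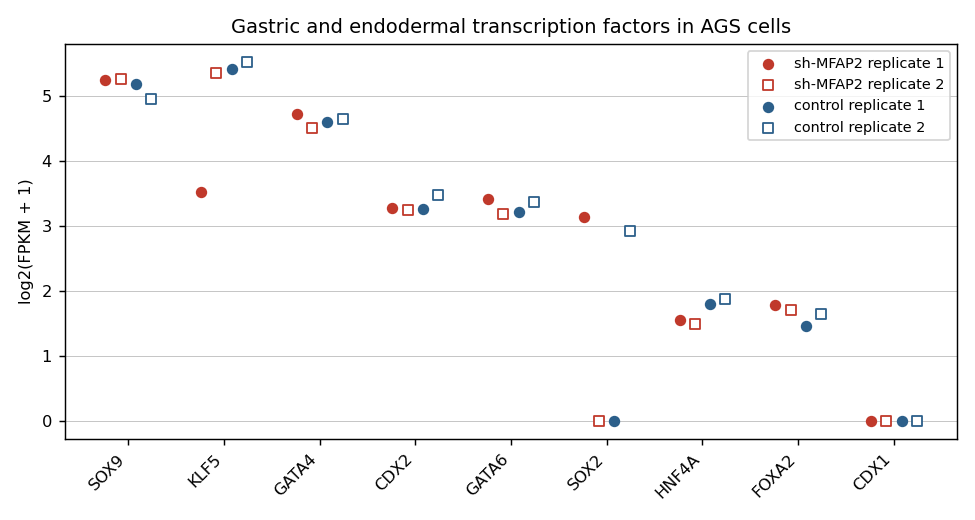
Level of each of the 9 factors in the 4 libraries, as log2(FPKM + 1), with 1 point per library, red for sh-MFAP2 and blue for control, filled for replicate 1 and open for replicate 2. Most factors sit at one level in all libraries, KLF5 is low in sh-MFAP2 replicate 1, SOX2 is at 0 in 1 library of each group, and CDX1 is at 0 in all.

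The libraries themselves were those of an epithelial line. Of the 6 epithelial markers, KRT8 was at 690 to 803 FPKM and EPCAM at 193 to 210 FPKM, and KRT18 and KRT19 were above 200 FPKM in every library. CLDN4 was at 47.1 FPKM in sh-MFAP2 replicate 1 and at 0.0151, 0.291 and 0.551 FPKM in the others, and CDH1, the gene of E-cadherin, was low at 0.584 to 1.25 FPKM. Of the other marker lists, 2 of 6 mesenchymal, 2 of 4 squamous, 1 of 4 immune, 0 of 4 endothelial and 0 of 4 neuroendocrine genes reached a mean of 1 FPKM, and the defining TP63, PTPRC, PECAM1 and CHGA stayed under 0.05 FPKM in every library. The squamous list summed to 4.33 to 5.22 FPKM in sh-MFAP2 and to 2.64 to 2.96 FPKM in control through KRT13 and KRT14, the immune list to 3.13 to 3.16 FPKM and 7.21 to 7.86 FPKM through CD68, and the mesenchymal list to 4.74 to 4.89 FPKM and 5.63 to 6.23 FPKM. Within the last, ACTA2 was at 2.55 and 2.62 FPKM in the sh-MFAP2 group against 1.24 and 1.28 FPKM in the control group, and COL1A1 at 2.27 and 2.07 FPKM and 4.36 and 4.92 FPKM, with neither called by limma. The part of these differences in the results below was not tested, and in such bulk samples fewer cells of a type and less RNA per cell cannot be told apart. MFAP2, the target of the shRNA, had 0.0116 and 0.0138 FPKM in the controls and 0 in each knockdown library, too low to check the labels. The authors give no depth. The step between low values of genes with 1 transcript of over 1000 bases implied 54800000 to 75000000 reads per library. On this step fell 62.2% to 62.7% of those low values, where a step fixed beforehand would hold 10% by chance. The step was picked as the best of many tried, so this comparison is not a test.

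Whether the knockdown of MFAP2 went with a shift in these factors was asked by comparing the 2 sh-MFAP2 with the 2 control libraries on log2(FPKM + 1). No factor passed the test. Of the 9873 genes averaging 1 FPKM or more, 8 were members, and limma with Benjamini-Hochberg adjustment called none of the 8 at p under 0.01 and adjusted p under 0.05, where 0.273% of all genes tested were called. At an unadjusted p under 0.05, 1 of the 8 was lower (8.41% of all genes tested were) and 0 were higher (3.89% of all). The groups did not overlap for 2 members higher in sh-MFAP2 (17.5% of all genes tested) and 2 members lower (31.4% of all). The median log2 difference was -0.01 over the 8 members and -0.05 over all genes tested. With 2 libraries a group, an exact permutation test of 1 gene cannot go below p = 0.333, so the tests rest on limma's variance shared between genes. A p that missed the threshold does not show that levels were equal, and the intervals below give the differences that remain possible.

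FOXA2 had 2.45 and 2.25 FPKM in the first and second sh-MFAP2 libraries and, in the same order, 1.76 and 2.13 FPKM in the controls. The groups did not overlap, but the space between them was narrower than the gap between the controls. The log2 difference was 0.19 (standard error 0.12, adjusted p = 0.554 by limma), with a 95% interval from -0.16 to 0.53. Of its 2 transcripts, the one with the upstream start held 27.8% and 28.8% of the summed transcript FPKM in sh-MFAP2 and 21.0% and 31.1% in control, which overlapped. FOXA2 is a minus-strand gene of chromosome 20, from 22581005 to 22585455.

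GATA6, on chromosome 18 from 22169443 to 22202528, had 9.65 and 8.13 FPKM in the sh-MFAP2 group and 8.33 and 9.39 FPKM in the control group. The groups overlapped fully and the log2 difference was 0.00 (standard error 0.14, 95% interval -0.39 to 0.40, adjusted p = 0.996 by limma). Other annotated genes overlap it on the opposite strand, and whether the libraries kept the strand is not given in the sources used here. One of them, the noncoding GATA6-AS1, had 1.96 and 1.54 FPKM in the sh-MFAP2 group and 1.57 and 0.981 FPKM in the control group (log2 difference 0.28, adjusted p = 0.559 by limma).

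GATA4 lies on chromosome 8 from 11676959 to 11760002 and had 25.3 and 21.8 FPKM in the sh-MFAP2 group against 23.4 and 24.1 FPKM in the control group. As a gene it did not separate the groups, with a log2 difference of -0.01 (standard error 0.12, 95% interval -0.37 to 0.34, adjusted p = 0.975 by limma) that turned to 0.06 when libraries were scaled by the median of ratios. Its transcripts did not share one pattern. The main transcript ENST00000335135 was at 26 and 20.3 FPKM in the sh-MFAP2 group and at 28.2 and 27.3 FPKM in the control group, so that the groups did not overlap (log2 difference -0.26, adjusted p = 0.728 by limma).

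Transcript ENST00000528712, which starts 27245 bases upstream of ENST00000335135 in GENCODE 29 and like it has 7 exons, was at 5.05 and 6.20 FPKM in the sh-MFAP2 group and at 0.383 and 0.701 FPKM in the control group. Its mean was 10.4 times that of the controls, and its lowest sh-MFAP2 value was 7.20 times its highest control value. On the inferred scale the sh-MFAP2 values corresponded to about 803 and 887 reads and the control values to 59 and 138 reads. These are amounts assigned when reads were divided among the transcripts, not reads found in this transcript alone. The log2 difference was 2.11 (standard error 0.23, 95% interval 1.45 to 2.76) and the adjusted p was 0.218 by limma over 22312 transcripts averaging 1 FPKM or more, so it did not pass the test. Both control values were under 1 FPKM, so it entered the fit only through its sh-MFAP2 values. In that fit 0% of transcripts were called. This transcript was singled out after its values were seen.

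Taking the GATA4 transcripts by where they start, the distal start held 12.8% and 17.3% of the summed transcript FPKM in sh-MFAP2 and 2.76% and 2.69% in control, and the main start held 72.4% and 67.2% in sh-MFAP2 and 89.2% and 80.0% in control. The class holds a second transcript, ENST00000532977, which starts next to the first and went the other way, at 0.0705 and 0.140 FPKM in the sh-MFAP2 group against 0.581 and 0.297 FPKM in the control group, so the difference in share was that of ENST00000528712 alone. The difference in the distal share was 12.3 percentage points, with a replicate standard deviation of 2.24 percentage points from 2 libraries a group. It restates the values of the transcript singled out above and is no separate support. Transcripts that share most of their exons are told apart by few reads, and the program that divided the reads is not given in the sources used here.

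**Figure D2:**
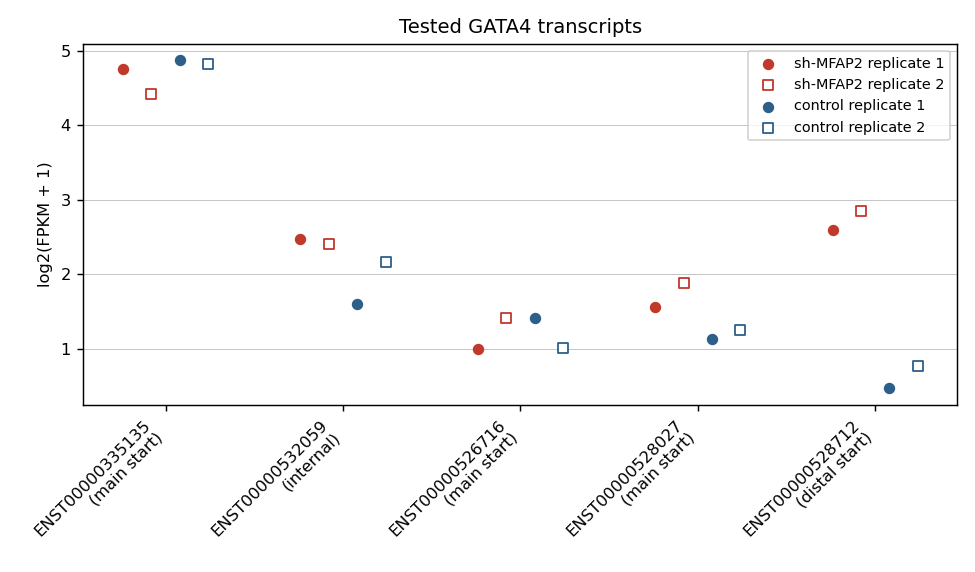
Level of the 5 tested GATA4 transcripts in the 4 libraries, as log2(FPKM + 1), with 1 point per library, red for sh-MFAP2 and blue for control. Transcript ENST00000528712 is higher in both sh-MFAP2 libraries, at 5.05 and 6.20 FPKM, than in the controls, at 0.383 and 0.701 FPKM, while the main transcript is slightly lower.

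Over all members, 14 of 32 transcripts were tested. Limma called 0 of the 14, and 1 of the 14, GATA4 transcript ENST00000528712, was higher at an unadjusted p under 0.05 (3.22% of all transcripts tested were). As stated above, that transcript entered the fit only through its sh-MFAP2 values. Groups did not overlap for 5 transcripts higher in sh-MFAP2 (17.8% of all transcripts tested) and 3 lower (24.9% of all).

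SOX2, the foregut factor, is a single-exon gene on chromosome 3 from 181711924 to 181714436. It was at 7.82 FPKM in sh-MFAP2 replicate 1 and 0 in replicate 2, and at 0 in control replicate 1 and 6.59 FPKM in replicate 2. One library of each group thus listed it at 0 while the other held about 1190 and 1240 reads on the inferred scale, a gap far beyond counting error. No difference between groups could be read from these values (log2 difference 0.11, standard error 1.57, 95% interval -4.34 to 4.56, adjusted p = 0.982 by limma), and the difference became -1.46 when sh-MFAP2 replicate 1 was left out and -1.35 when control replicate 1 was. SOX2-OT, the long noncoding gene in which SOX2 lies, was under 0.01 FPKM in every library.

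This on-and-off listing was common among single-exon genes in these files. Of 137 single-exon genes tested, 64 (46.7%) had a library under 10% of their highest value and another with at least 5 FPKM, against 138 of 9720 multi-exon genes (1.42%). Exactly 4 genes were listed at 0 in sh-MFAP2 replicate 2 and control replicate 1 and at 5 FPKM or more in the other libraries, and all 4 have 1 exon: SOX2, SOX4, FZD7 and C6orf47. SOX4, a relative of SOX2, had 9.42 and 0 FPKM in the sh-MFAP2 group and 0 and 14.9 FPKM in the control group. That pattern was looked for after the SOX2 values had been seen, and its cause was not tested.

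CDX2, a minus-strand gene of chromosome 13 from 27962137 to 27971139, had 8.68 and 8.49 FPKM in the sh-MFAP2 group and 8.63 and 10.1 FPKM in the control group. Control replicate 2 was the highest, and the other libraries were close together. The log2 difference was -0.11 (standard error 0.12, 95% interval -0.46 to 0.24, adjusted p = 0.706 by limma). Its relative CDX1, on chromosome 5 from 150166795 to 150184558, was listed at 0 for the gene and for both its transcripts in all 4 libraries. AGS cells in these files therefore listed one intestinal CDX gene at a clear level and the other at 0.

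HNF4A, on chromosome 20 from 44355700 to 44434596, had 1.95 and 1.81 FPKM in the sh-MFAP2 group and 2.49 and 2.68 FPKM in the control group. The groups did not overlap, and the gap between them was wider than that between replicates. The mean in sh-MFAP2 was 0.727 of that in control, and the log2 difference was -0.32 (standard error 0.10, 95% interval -0.61 to -0.02). It had the smallest p among the 8 members, an unadjusted p = 0.0409, and an adjusted p = 0.398 by limma, so it did not pass the test.

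P2 transcripts made up most of the summed transcript FPKM in every library. They made up 88.8% and 95.9% of the summed HNF4A transcript FPKM in sh-MFAP2 and 95.7% and 99.3% in control, and P1 transcripts summed to 0.863, 0.345, 0.468 and 0.0994 FPKM in the order of sh-MFAP2 replicates 1 and 2 and control replicates 1 and 2. These are not shares of the gene value, which weights transcripts by length. The P1 transcript ENST00000316099 has 6445 bases and the leading P2 transcript 1470, so P1 held a larger part of the gene value than of this sum. The difference in P2 share, sh-MFAP2 minus control, was -5.16 percentage points, with a replicate standard deviation of 3.97 percentage points and overlapping groups. The leading P2 transcript ENST00000316673 was at 4.80 and 6.503 FPKM in the sh-MFAP2 group and at 8.33 and 9.74 FPKM in the control group (log2 difference -0.60, unadjusted p = 0.0604, adjusted p = 0.668 by limma). The antisense gene HNF4A-AS1 was above 0 only in control replicate 2, at 0.00127 FPKM.

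**Figure D3:**
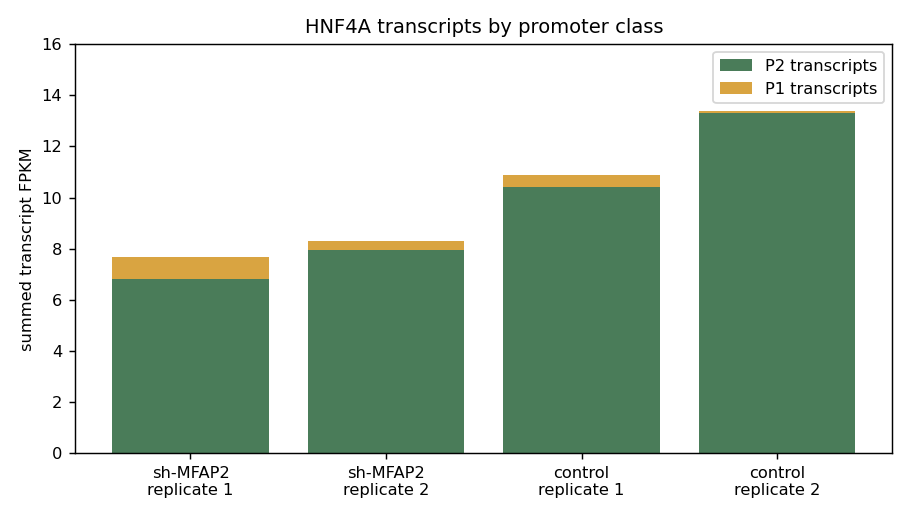
Summed FPKM of the HNF4A transcripts in each library, stacked by promoter class, green for P2 and yellow for P1. P2 fills 88.8% to 99.3% of each bar, and the sh-MFAP2 bars are the lower ones.

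SOX9, the progenitor factor on chromosome 17 from 72121020 to 72126420, had 36.9 and 37.2 FPKM in the sh-MFAP2 group and 35.6 and 29.9 FPKM in the control group. Control replicate 2 was the low library, and the other controls and knockdowns were close. The log2 difference was 0.18 (standard error 0.13, 95% interval -0.20 to 0.56, adjusted p = 0.588 by limma), and 0.06 without control replicate 2. Between 8020 and 8840 reads on the inferred scale stood behind each SOX9 value.

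KLF5, on chromosome 13 from 73054976 to 73077542, had 10.5 and 40.0 FPKM in the sh-MFAP2 group and 41.8 and 45.1 FPKM in the control group. One library decided its difference. The log2 difference was -1.03 (standard error 0.67, 95% interval -2.95 to 0.88, adjusted p = 0.556 by limma), -0.12 without sh-MFAP2 replicate 1 and -1.94 without sh-MFAP2 replicate 2. The sh-MFAP2 replicates were 1.83 apart on the log2 scale, whereas the controls were 0.11 apart. The low value was that of 1 transcript, ENST00000377687, at 11.5 FPKM in sh-MFAP2 replicate 1 and 43.6, 45.6 and 49.2 FPKM in the others, with about 2490 reads on the inferred scale behind the lowest. The other protein-coding KLF5 transcript, which starts 3816 bases upstream, was under 0.001 FPKM in every library.

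A library standing below 1/3 of every other was uncommon when each library was counted by itself. The share of genes with such a drop in any of the 4 libraries is larger than each share below. The cut at 1/3 was not part of the planned description, which used 10% of the highest value. Among 5759 genes averaging 5 FPKM or more it was found for 45 genes (0.781%) in sh-MFAP2 replicate 1, for 40 (0.695%) in sh-MFAP2 replicate 2 and for 36 (0.625%) in each control. KLF5, with 4 exons, was 1 of the 45, and no other member averaging 5 FPKM or more was of this kind.

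**Figure D4:**
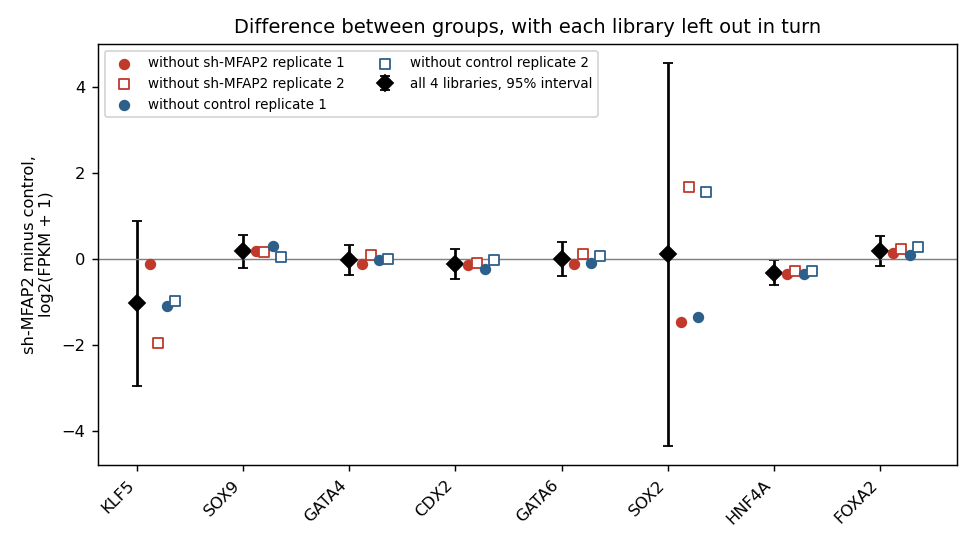
Difference between sh-MFAP2 and control for the 8 tested factors on the log2(FPKM + 1) scale, as black diamonds with 95% intervals of limma, and the same difference with each library left out in turn as coloured points. SOX2 runs from -1.46 to 1.68 and KLF5 from -1.94 to -0.12 with the library left out, while HNF4A stays between -0.35 and -0.28.

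Genes whose pattern over the 4 libraries was most like that of a member were named for the 5 members averaging 5 FPKM or more, by Pearson's r of log2(FPKM + 1). For SOX9, S100A14 (r = 0.9996) is given. For GATA4 they were AARS (r = 0.9999) and MTSS1L (r = 0.9993), and for GATA6 they were ACTN4 (r = 0.9985) and SLC7A1 (r = 0.9985). For CDX2 they were GALNT3 (r = 0.9986) and CAD (r = 0.9966). For KLF5 they were TKT (r = 0.9999), at 45.7 FPKM in sh-MFAP2 replicate 1 and 50.5 to 50.9 FPKM in the others, and POLR2D (r = 0.9996). With 4 libraries such values are easily reached, and 136 genes had an r of at least 0.99 with KLF5.

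Other regulators of the same lineages were examined with a list of 53 genes, all found and 18 tested. None of the 18 was called by limma (0.273% of all genes tested were), 1 was higher and 2 were lower at an unadjusted p under 0.05 (3.89% and 8.41% of all), and the median log2 difference was -0.07. The higher gene was PDX1, described below, which passed the filter only through its sh-MFAP2 values, so this count is no support for a rise. The highest were FOXA3, a relative of FOXA2, at 26.1 to 29.5 FPKM, and ELF3, an epithelial ETS factor, at 24.4 to 26.9 FPKM, and both had overlapping groups. FOXA3 was thus above FOXA2 in every library. NR2F6 was at 14.5 to 18.4 FPKM and KLF4 at 5.55 to 9.30 FPKM. KLF6 had 13.8 and 6.15 FPKM in the sh-MFAP2 group and 20.3 and 21.8 FPKM in the control group (log2 difference -1.10, adjusted p = 0.409 by limma). PITX1 had 3.71 and 3.64 FPKM against 15.0 and 8.83 FPKM (log2 difference -1.42, unadjusted p = 0.00757, adjusted p = 0.324 by limma).

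Another pair of genes of that list was chosen after their values were seen. PDX1, the homeobox factor of pancreas, duodenum and gastric antrum, had 2.57 and 1.54 FPKM in the sh-MFAP2 group and 0 and 0.0233 FPKM in the control group, and it entered the fit only through its sh-MFAP2 values (adjusted p = 0.190 by limma). GATA5, the relative of GATA4 and GATA6, had 2.17 and 2.17 FPKM in the sh-MFAP2 group and 2.92 and 2.86 FPKM in the control group (log2 difference -0.29, adjusted p = 0.398 by limma). Neither passed the test, and in both the groups did not overlap.

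Of 27 effector genes of the stomach, 26 were found, 5 were tested and none was called by limma (0.273% of all genes tested were), with 1 higher and 0 lower at an unadjusted p under 0.05 (3.89% and 8.41% of all) and a median log2 difference of 0.14. MUC5AC and MUC6, the gastric mucins, were under 0.02 FPKM in every library. CTSE, cathepsin E of gastric surface cells, was highest and had 129 and 131 FPKM in the sh-MFAP2 group and 164 and 295 FPKM in the control group (log2 difference -0.75, adjusted p = 0.438 by limma). MUC1, a membrane mucin, had 16.2 and 13.8 FPKM against 6.26 and 6.25 FPKM (log2 difference 1.14, standard error 0.12, unadjusted p = 0.00105, adjusted p = 0.145 by limma). TFF1 was at 2.11 to 5.09 FPKM, CAPN8 at 1.06 to 1.48 FPKM, PGC at 0.997 to 1.46 FPKM and ANXA10 under 1 FPKM.

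Of the intestinal effectors, 34 of 35 were found and 9 were tested. None was called by limma (0.273% of all genes tested were), 3 were higher and 0 lower at an unadjusted p under 0.05 (3.89% and 8.41% of all), and the median log2 difference was 0.19. VIL1, the villin of the brush border, had 36.3 and 37.9 FPKM in the sh-MFAP2 group and 43.0 and 44.2 FPKM in the control group. CDH17, an intestinal cadherin known as a target of CDX2, had 25.3 and 36.1 FPKM against 36.7 and 43.1 FPKM (log2 difference -0.38, adjusted p = 0.521 by limma). MUC13 had 21.3 and 16.2 FPKM against 9.44 and 10.9 FPKM (log2 difference 0.81, adjusted p = 0.337 by limma), and REG4 had 23.6 and 28.7 FPKM against 19.9 and 17.5 FPKM (log2 difference 0.46, adjusted p = 0.399 by limma). LGALS4 was at 6.69 to 7.33 FPKM, and CEACAM6 ran from 8.55 to 23.1 FPKM with overlapping groups. These differences went in both directions.

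Genes of liver and of HNF4A function were represented by 5 tested of 30, none of them called by limma (0.273% of all genes tested were), with 2 higher and 0 lower at an unadjusted p under 0.05 (3.89% and 8.41% of all) and a median log2 difference of 0.83. The 3 fibrinogen chains led the list. FGG had 39.8 and 36.8 FPKM in the sh-MFAP2 group and 21.4 and 20.7 FPKM in the control group (log2 difference 0.83, adjusted p = 0.190 by limma), and FGB had 41.4 and 31.3 FPKM against 16.6 and 13.2 FPKM (log2 difference 1.23, adjusted p = 0.283 by limma). FGA had 42.5 and 15.6 FPKM against 10.3 and 16.6 FPKM, with overlapping groups. APOA2 was at 5.48 to 8.18 FPKM, APOA1 at 1.66 to 2.76 FPKM and APOM at 0.731 to 1.02 FPKM, while ALB, the albumin gene that defines liver, was at 0.0258 FPKM in 1 library and at 0 in the others.

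**Figure D5:**
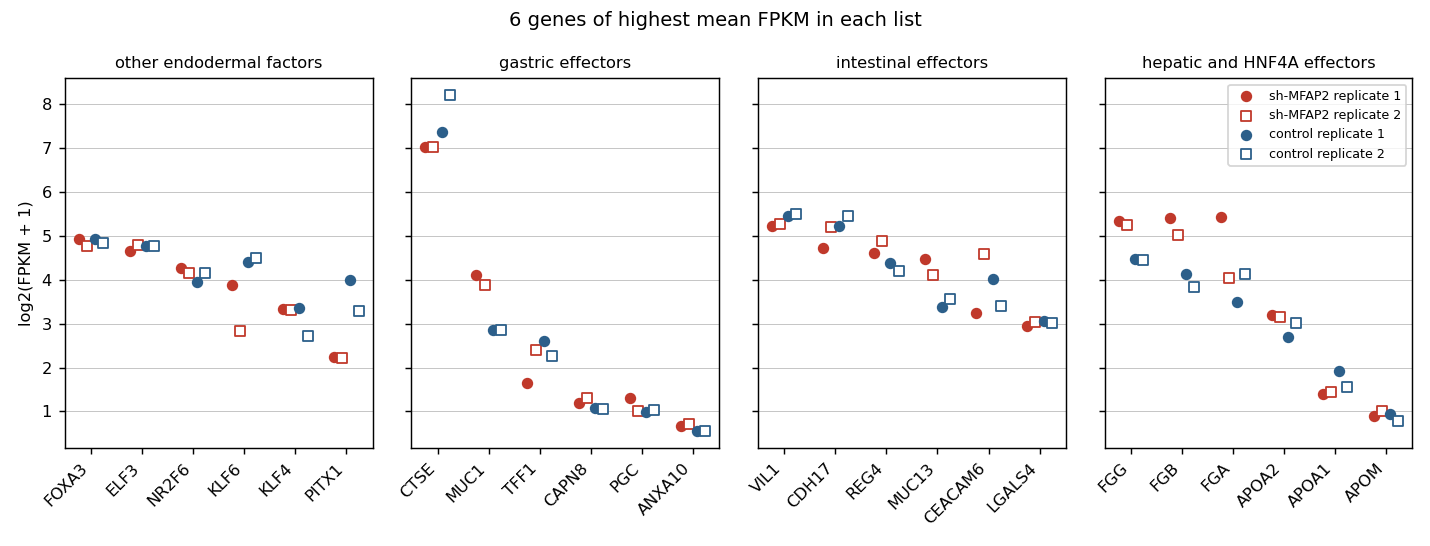
Level of the 6 genes of highest mean FPKM in each of 4 lists, as log2(FPKM + 1), with 1 point per library, red for sh-MFAP2 and blue for control. MUC1, FGG, FGB, MUC13, REG4, NR2F6, APOA2, CAPN8 and the untested ANXA10 are higher in both sh-MFAP2 libraries. PITX1, KLF6, CTSE, VIL1, CDH17 and APOA1 are lower in both. Over all genes tested, groups did not overlap for 17.5% higher and 31.4% lower in sh-MFAP2. No tested gene shown passed the adjusted test.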

How the data were processed

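RNA of 4 AGS libraries was measured. The authors made FPKM values, per gene (47251) and per transcript (180500), from the reads and deposited them. The unit is not named and was read from how the values behave. The submitters' processing notes name hg38, while the aligner, estimating program, annotation and filters are not given in the sources used here. For each member above 0, gene and transcript values agreed once transcripts were weighted by length. Places, exons and starts came from GENCODE 29 (92.5% of gene identifiers found) and promoters from RefSeq.

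All genes averaging 1 FPKM or more were fitted as log2(FPKM + 1), a pseudocount that understates changes of low genes, by limma 3.58.1 (lmFit, then eBayes with trend) in R 4.3.3 and Benjamini-Hochberg adjustment, and transcripts likewise. The fit was also run on simulated data. There it missed every gene given the smallest change put in and called most genes given the larger ones. The simulated spreads came from limma's shared variance. The run therefore does not speak to KLF5, whose sh-MFAP2 replicates stood far apart. Calls needed p under 0.01 and adjusted p under 0.05, as in the study's supplementary methods. Python 3.11.15, pandas 2.3.3, numpy 2.4.6 and matplotlib 3.10.9 were used. Depth, in reads, was inferred from the steps of low values with a tolerance of 0.05 of a step, and single reads were not recovered.

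Members and lists were chosen with earlier results of these data known. Named are the members, the 6 genes of highest mean in each list, noncoding neighbours above 0, and the 2 genes most like each member averaging 5 FPKM or more. LINC00261, a noncoding neighbour of FOXA2, was under 0.05 FPKM in every library, and the single hepatic marker of 4 above 1 FPKM was FGB. One of the genes most like SOX9 and one marker gene are not reported here. Promoter entries were not used for SOX9, GATA4, CDX1 and FOXA2.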

Additional observations from a re-analysis of the deposited data

How the results depend on the processing

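No member and no gene of the 4 lists was called under any filter, pseudocount, scaling, trend, block or left-out library that was run, and 1 member had an unadjusted p under 0.05 with that threshold alone. Over all genes the count of calls was 27, against 6 without a filter, 9 among genes averaging 5 FPKM or more, 0 with the replicate block and 0 with any library left out, where the lone library of a group was assumed to vary like the others. Same-numbered libraries deviated together at r = -0.0572 over all genes tested, and are therefore not treated as pairs, and no member's call changed with the block. The GATA4 difference turned from -0.01 to 0.00 with quantile normalization, to 0.06 with the median of ratios and to 0.09 from summed transcripts. With each library left out in turn it ran from -0.12 to 0.09 for GATA4, from -0.11 to 0.11 for GATA6, from -1.46 to 1.68 for SOX2 and from -1.94 to -0.12 for KLF5. HNF4A ran from -0.35 to -0.28, and was -0.54 from summed transcripts. GATA4 transcript ENST00000528712, in fits added after the data were seen, ran from 1.96 to 2.25 with a library left out, was 3.20 with a pseudocount of 0.1, and had an adjusted p from 0.205 to 0.722 in limma. Its mean over the libraries was under the filter of 5 FPKM, as were those of the genes SOX2, HNF4A and FOXA2, so none of them was fitted there. No call for a member transcript was made under any of these settings. Over all transcripts the count of calls was 0, against 5 with a pseudocount of 0.1 and 1 above the filter of 5 FPKM. The P2 share differed by -8.70 to -1.62 percentage points and the distal GATA4 share by 10.1 to 14.6 with a library left out. The cause was not tested. The depth is inferred, so no counting intervals are given.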
